A study of Mus musculus with 8 samples.

Results

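Genes of myelin and of the mature oligodendrocyte were compared between cultured mouse optic nerves kept with and without lithium. The set held 34 genes chosen by name for their known role in myelin or in the cells that make it, and each was read from the probe set with the highest mean log2 signal among those annotated to that gene alone. A value was obtained for 32 of the 34, out of 18193 genes read in the same way. The only probe set of Trf (transferrin, an iron carrier that oligodendrocytes make) was paired with several gene symbols and was not used, and Enpp2 (autotaxin, a secreted phosphodiesterase) was not analysed here. Optic nerves from C57BL/6 mice aged 35 to 45 days were kept for 3 days in organotypic medium containing saline, the control group of 4 samples, or 20 mM lithium chloride, the lithium group of 4 samples. The labels give 6 nerves per sample and the paper's methods give another count, another strain (C57/BL10) and a different version of the RNA kit, a disagreement that could not be settled here. The paper cultured nerves with the retina attached and chose 20 mM to reach a lower, therapeutic concentration inside the nerve. It does not say whether the retina was removed before RNA extraction. Each sample was a pool of whole nerves, and the labels name no transgene or allele. Neither the labels nor the paper tell whether the 4 samples per condition were independent cultures or donors, and p-values therefore reflect just the variation among these 8 arrays, part of which may be technical.

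Oligodendrocytes wrap axons of the central nervous system in myelin, a compacted membrane rich in galactolipids and cholesterol and held together by a small number of abundant proteins. The optic nerve is a tract of white matter in which the axons of retinal ganglion cells are myelinated by oligodendrocytes, and it holds no cell bodies of neurons. Precursor cells persist in it, and their differentiation runs through transcription factors of the Olig and Sox families to Myrf, which switches on myelin genes.

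No gene of the set passed an adjusted p of 0.05 between lithium and control in either direction, where 3.23% of all genes did (1.18% higher and 2.05% lower, limma with Benjamini-Hochberg adjustment across the array) and 3.77% of those with a mean signal of at least 200 in either group. At an unadjusted p under 0.05 there were 4 of the 32, Aspa, Olig2 and Pex5l with higher and Ppp1r14a with lower means in lithium, a share of 12.5% beside 22.0% of all genes and 23.9% of those at the level of 200. The groups of 4 arrays did not overlap for 3 of the 32 (Aspa, Olig2 and Pex5l, all higher in lithium), a share of 9.38%, beside 15.1% of all genes (6.30% higher and 8.79% lower) and 18.5% of those at the level of 200. With 3 or 4 genes these shares are descriptions, and whether they differ from those of the array was not tested. When only probe sets at that level were tested, Aspa, Olig2 and Pex5l passed the threshold (adjusted p = 0.0154, 0.0317 and 0.0435), and in that fit 3.74% of genes were called higher and 5.21% lower. Aspa and Olig2 reached that level in lithium alone, with control means of 198 and 171. Their entry to that fit was therefore not independent of the difference tested.

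Differences across the set were small. The mean log2 signal was higher in lithium for 22 members and lower for 10, and the median difference was 0.10 on the log2 scale, from -0.80 (Gjb1) to 0.86 (Aspa). Over all genes the median was -0.00, and over the 5431 genes with a mean of at least 200 in either group, a level that 31 of the members reached, it was 0.03. The members' median came to 0.01 without the array lithium 1. The difference was under 0.2 in size for 22 members and over 0.5 in size for 5. Its median size was 0.13 in the members and 0.17 in the genes at the level of 200. The 95% confidence interval of the difference lay within 0.5 of 0 on the log2 scale for 17 members and within 1, a change of 2-fold, for 28, so that for most members a change of more than 2-fold lay outside the interval. Because whole nerves were measured, fewer cells of a type and less RNA per cell cannot be told apart.

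**Figure D1:**
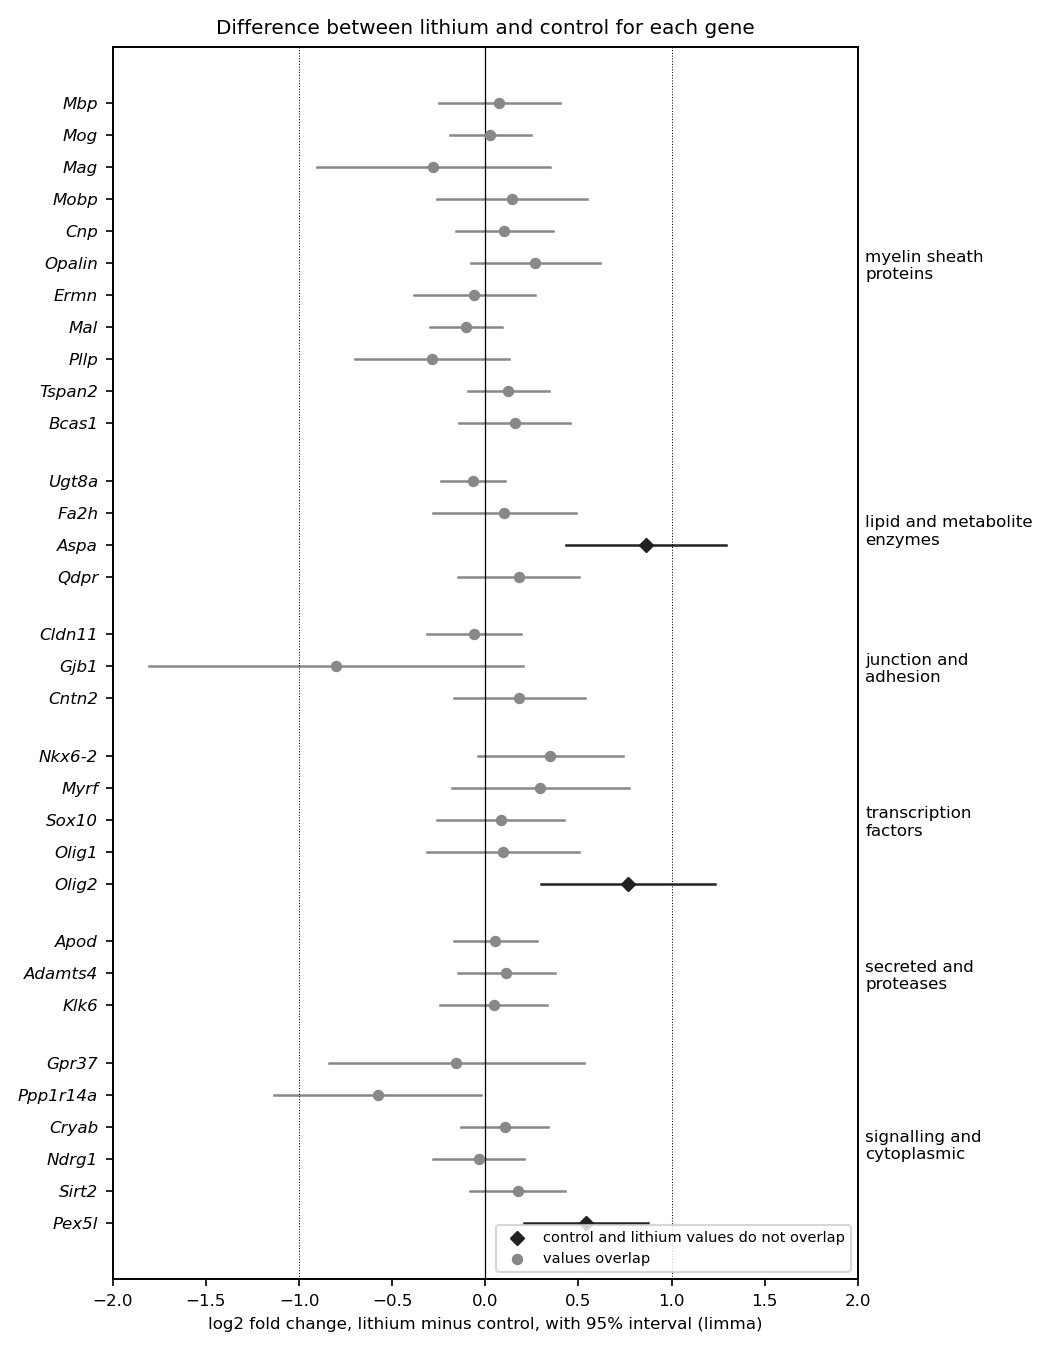
Difference of mean log2 signal (lithium minus control) for the 32 members by role, with bars for the 95% confidence interval from limma. Most points lie near 0, and the intervals of Aspa, Olig2 and Pex5l lie above 0 and that of Ppp1r14a below it, although no member passed an adjusted p of 0.05.

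All 32 members were well detected. On each of the 8 arrays every member lay above the highest signal of the 27 probe sets for added poly-A controls, which was 2.13 to 5.64, and the lowest signal of any member on any array was 67.3. The poly-A limit was low, since 15661 of all 18193 genes lay above it on some array. The median signal of an array was 12.3 to 17.5. The defining genes of myelinated tissue were thus present on every array, control and lithium alike. The signals of 11 retina and neuron markers summed to 154 to 253 in control and 143 to 307 in lithium samples. The brightest probe set of an array had a signal of 2439 to 3930, and the brightest member reached 3461 on lithium 1. Whether such probe sets were saturated cannot be read from the deposited values.

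The proteins of the myelin sheath comprised 11 members, with a median difference of 0.08, a range from -0.29 to 0.27 and no adjusted p below 0.411. The sheath's median difference was -0.01 within arrays 1 and 2 and -0.03 within arrays 3 and 4, and it came to -0.0073 without lithium 1 and -0.011 after quantile normalization. Mbp, the myelin basic protein that draws the cytoplasmic faces of the membrane together, had signals of 2396, 2431, 2217 and 2336 in the control samples and 3114, 2653, 2028 and 2222 in the lithium samples. Lithium 1 and 2 lay above all controls and lithium 3 below all of them, so that the groups overlapped. The means were 2345 ± 93.8 and 2504 ± 483 (SD, n = 4 each), a log2 difference of 0.08 (95% interval -0.25 to 0.40, adjusted p = 0.842). All 8 probe sets of Mbp had a higher mean in lithium, by 0.07 to 0.32 on the log2 scale, and none passed the test, but the probe set described here came to -0.031 after quantile normalization and to -0.036 without lithium 1.

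Mobp, a further basic protein of compact myelin, had signals of 2419, 2416, 2162 and 2183 in control and 3461, 2662, 2210 and 2017 in lithium samples. Its lithium values reached both above and below the controls, with a log2 difference of 0.14 (adjusted p = 0.736). Cnp, a cyclic nucleotide phosphodiesterase of non-compact myelin, was likewise highest on lithium 1, at 1912, 1832, 1681 and 1831 in control and 2395, 1868, 1840 and 1740 in lithium samples. Bcas1, a marker of oligodendrocytes that are forming myelin, had a mean of 1454 ± 30.3 in control and 1641 ± 294 in lithium (log2 difference 0.16, adjusted p = 0.604).

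The surface proteins of the sheath had higher and lower means in lithium. Mog, the immunoglobulin protein of the outermost lamella, measured 1228, 1204, 1243 and 1305 in control and 1293, 1073, 1359 and 1372 in lithium samples, with a log2 difference of 0.03 (95% interval -0.19 to 0.24). The Mog interval was among the narrow ones, and the groups overlapped. Mag, the adhesion protein that faces the axon, measured 560, 645, 773 and 814 in control and 650, 342, 756 and 623 in lithium samples. Lithium 2 was the lowest of the 8 arrays for Mag, and the log2 difference of -0.28 had an interval from -0.91 to 0.35 and came to -0.035 without that array. Opalin, a sialylated transmembrane protein of oligodendrocytes, had the lowest adjusted p of the sheath proteins, with 768, 957, 693 and 732 in control and 1065, 877, 1071 and 784 in lithium samples. Lithium 1 and 3 were above all controls for Opalin, and the other two lay among them (log2 difference 0.27, interval -0.08 to 0.62, adjusted p = 0.411).

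Proteins of membrane sorting and the cytoskeleton completed the sheath group. Plasmolipin (Pllp), a proteolipid of myelin rafts, measured 499, 512, 568 and 573 in control and 514, 307, 492 and 486 in lithium samples, with lithium 2 far below the rest and a log2 difference of -0.29 (adjusted p = 0.469), which came to -0.11 without lithium 2. Mal, a related proteolipid of membrane rafts, averaged 1535 in control and 1428 in lithium (log2 difference -0.10, interval -0.30 to 0.09). The actin-binding protein ermin (Ermn) and the tetraspanin Tspan2 differed by -0.06 and 0.12, with adjusted p of 0.883 and 0.568.

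**Figure D2:**
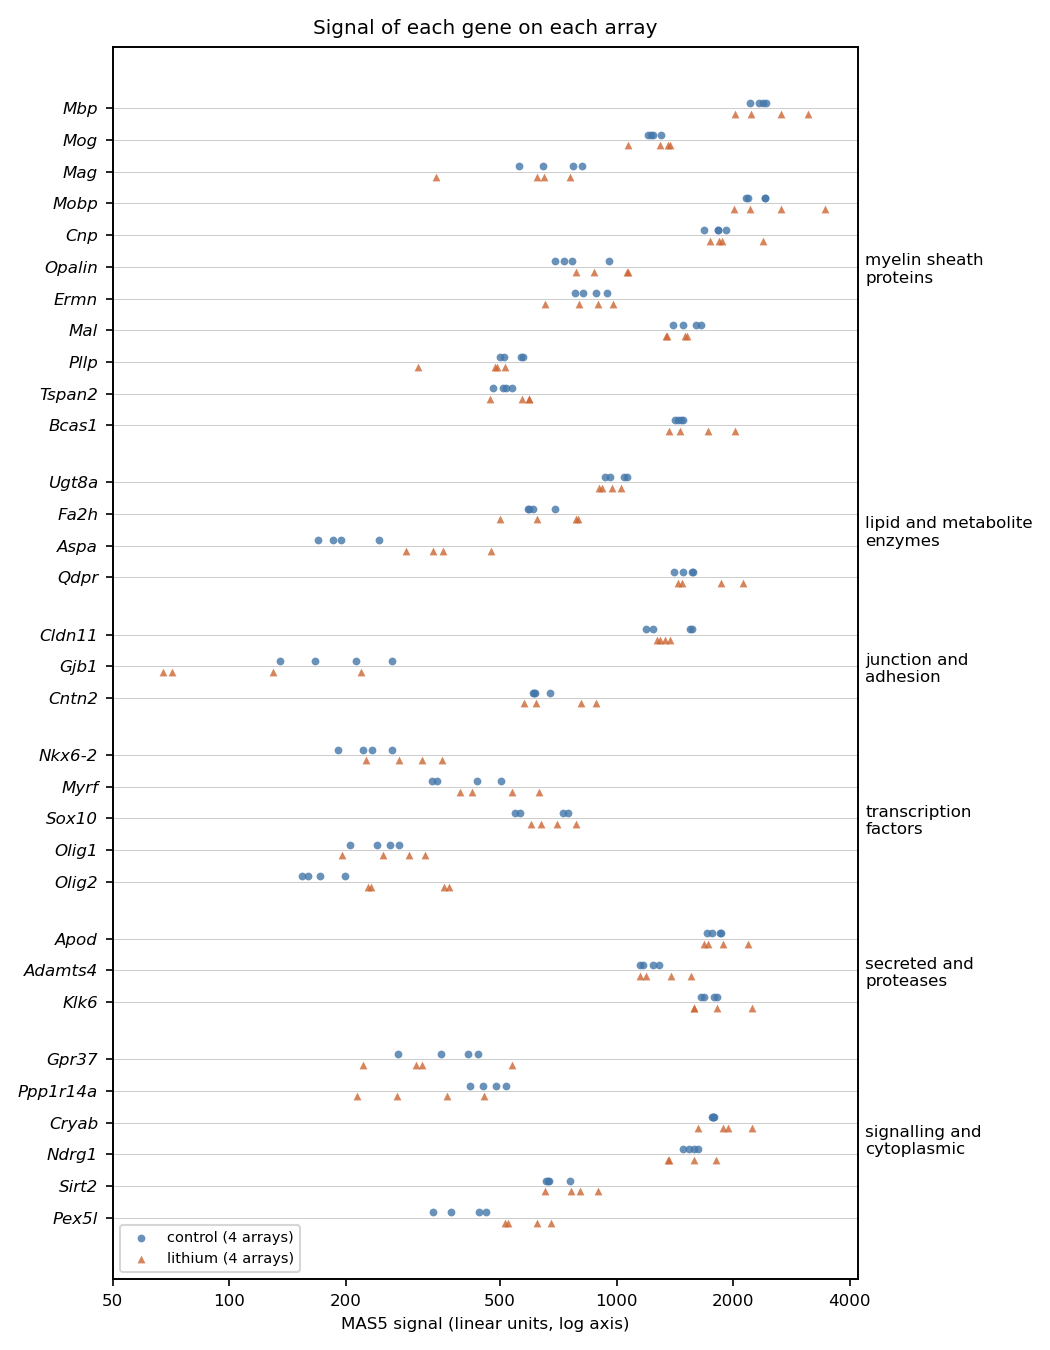
Deposited MAS5 signal of each of the 32 members on each array, on a log axis, for 4 control and 4 lithium samples. The groups overlap for 29 members and lie apart for Aspa, Olig2 and Pex5l.

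Among enzymes of lipid and metabolite supply, 4 were measured, with a median difference of 0.14. Aspa, the aspartoacylase that frees acetate from N-acetylaspartate for lipid synthesis, had the lowest adjusted p of the whole set. Its signals were 169, 185, 244 and 194 in control and 474, 336, 357 and 285 in lithium samples. Every lithium sample was above every control, with lithium 1 the highest. The means of 198 ± 32.2 and 363 ± 80.0 (SD, n = 4 each) gave a log2 difference of 0.86 (SE 0.18, interval 0.43 to 1.29), or 1.82-fold, with an adjusted p of 0.0647 and an unadjusted p of 0.00212. The adjusted p was 0.0395 with log2 of the value plus 16, 0.0469 with each gene's probe sets averaged and 0.0363 with a trended and robust variance. Aspa was called in 4 of the 18 alternatives, with an adjusted p of up to 0.154. Within arrays 1 and 2 the log2 difference was 1.17 and within arrays 3 and 4 it was 0.55. Aspa was represented by 1 probe set.

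The 250 bases before the start site that the promoter table gives for Aspa are shown because this gene had the largest difference of the set, in GRCm38.p6 from RefSeq at chr11:73324638-73324887 on the minus strand. The window lies inside the annotated gene (chr11:73304987-73326876), so that this start is an internal one and not the gene's outermost. Capitals mark the letters CAGATG, the E-box bound by Olig factors, read here on the opposite strand and starting 129 bases before the start site.
Aspa: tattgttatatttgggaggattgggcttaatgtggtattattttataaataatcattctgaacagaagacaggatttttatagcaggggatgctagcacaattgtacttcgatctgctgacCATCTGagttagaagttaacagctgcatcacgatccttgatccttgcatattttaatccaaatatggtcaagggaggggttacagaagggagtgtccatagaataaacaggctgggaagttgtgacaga
The match is a description of the letters in this window and not of a bound site.

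The enzymes of galactolipid synthesis did not share the Aspa pattern. Ugt8a, the transferase that makes galactosylceramide, measured 1044, 1061, 962 and 934 in control and 1028, 975, 903 and 915 in lithium samples. The lithium values lay slightly lower in all 4 pairs of equal number, but the groups overlapped, and the log2 difference of -0.07 had an interval from -0.24 to 0.11 (adjusted p = 0.704). Fa2h, which adds the hydroxyl group to the fatty acids of these lipids, averaged 621 ± 49.1 in control and 676 ± 141 in lithium (log2 difference 0.10, interval -0.28 to 0.48). Qdpr, the reductase that regenerates tetrahydrobiopterin, had 1577, 1562, 1406 and 1481 in control and 2119, 1864, 1443 and 1479 in lithium samples, with lithium 1 and 2 above all controls and lithium 3 and 4 among them (log2 difference 0.18, adjusted p = 0.580). A second probe set of Qdpr averaged 831 ± 46.3 in control and 963 ± 43.8 in lithium without overlap of the groups. Its log2 difference was 0.21 (limma, unadjusted p = 0.0133, adjusted p = 0.145).

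A wider list of 15 enzymes of sphingolipid and galactolipid metabolism had a median difference of 0.02 with 0 called in either direction by limma and 2 at an unadjusted p under 0.05. Of 13 cholesterol synthesis enzymes, 11 were measured, and 10 of them had a lower mean in lithium, with a median of -0.28. None of the 11 was called, and 1 had an unadjusted p under 0.05.

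The 3 junction and adhesion proteins differed among themselves. Cldn11, which forms the tight junctions between myelin lamellae, measured 1545, 1562, 1194 and 1242 in control and 1337, 1371, 1292 and 1273 in lithium samples. The controls numbered 1 and 2 lay above those numbered 3 and 4, the lithium values lay between, and the log2 difference was -0.06 (interval -0.31 to 0.19). Gjb1, the gap junction protein connexin of oligodendrocytes and Schwann cells, measured 166, 135, 212 and 263 in control and 71.1, 67.3, 130 and 219 in lithium samples. Its value was lower in lithium in all 4 pairs of equal number, by a log2 difference of -1.12 within arrays 1 and 2 and -0.49 within arrays 3 and 4. The spread within each group was wide, the groups overlapped, and the overall difference of -0.80 had an interval from -1.80 to 0.20 (adjusted p = 0.394). Cntn2, an adhesion protein of the juxtaparanode, averaged 628 ± 30.8 in control and 723 ± 148 in lithium (log2 difference 0.18, adjusted p = 0.610). A second, dimmer probe set of Cntn2 averaged 398 ± 13.3 and 508 ± 58.6 without overlap of the groups (log2 difference 0.35, adjusted p = 0.111).

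Gjb1 is also made by Schwann cells, of whose myelin genes 3 of 5 were measured. Egr2, the transcription factor of Schwann cell myelination, which other cells also induce, was lower in lithium and passed the test (293 ± 24.2 against 110 ± 42.1, log2 difference -1.48, adjusted p = 0.0376). The median of the 3 was -0.02, which is the value of Pmp22 alone. Pmp2 lay near the floor, with means of 0.593 in control and 2.36 in lithium. The part of such cells in the Gjb1 values was not tested.

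The partner genes of the node and paranode had a median difference of 0.09 over 11 genes. Only Cntn1, the contactin of the paranodal junction, passed the test in that list, with 127 ± 17.1 in control and 71.1 ± 5.57 in lithium (log2 difference -0.83, adjusted p = 0.0241). Cntnap2, an adhesion protein of the juxtaparanode, had the larger difference, with 34.6 ± 13.3 in control and 101 ± 50.5 in lithium and no overlap of the groups (log2 difference 1.53, unadjusted p = 0.00568, adjusted p = 0.0993). Nfasc of these genes is also in the list of other oligodendrocyte genes given below. Which cells the RNA of the node and paranode genes came from was not tested.

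The 5 transcription factors had the highest median difference of the 6 roles, 0.29, and each had a higher mean in lithium, apart from Olig1 when lithium 1 was left out (-0.0059) or the arrays were weighted (-0.03). The median came to 0.17 without lithium 4, as did Myrf, and it was 0.41 within arrays 1 and 2 and 0.25 within arrays 3 and 4. Olig2, the basic helix-loop-helix factor that specifies the lineage, measured 172, 198, 159 and 154 in control and 359, 368, 228 and 232 in lithium samples. Every lithium sample exceeded every control, and lithium 1 and 2 stood above lithium 3 and 4. The means of 171 ± 19.7 and 297 ± 77.2 gave a log2 difference of 0.77 (SE 0.20, interval 0.30 to 1.23), or 1.70-fold, with an adjusted p of 0.103 and an unadjusted p of 0.00618. With a term for arrays 1 and 2 against 3 and 4 in the fit, Olig2 passed the threshold (adjusted p = 0.0185). Olig2 was called in 2 of the 18 alternatives, with an adjusted p of up to 0.219. Olig2 was also represented by 1 probe set.

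The window before the start site of Olig2 is given beside that of Mobp, since Olig2 stood apart between the groups and Mobp, a gene of compact myelin, did not. They lie at chr16:91225300-91225549 and chr9:120149492-120149741, both on the plus strand of GRCm38.p6 as RefSeq gives it. Capitals mark the SOX core letters ACAAAG or ACAATG on either strand, which start 68 bases before the Olig2 start site and at 243, 231, 221, 198, 132 and 120 bases before that of Mobp.
Olig2: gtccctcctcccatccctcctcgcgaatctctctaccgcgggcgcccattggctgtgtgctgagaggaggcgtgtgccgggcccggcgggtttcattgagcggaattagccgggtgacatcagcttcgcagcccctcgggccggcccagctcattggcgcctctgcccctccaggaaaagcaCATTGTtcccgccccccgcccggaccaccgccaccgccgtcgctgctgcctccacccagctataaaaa
Mobp: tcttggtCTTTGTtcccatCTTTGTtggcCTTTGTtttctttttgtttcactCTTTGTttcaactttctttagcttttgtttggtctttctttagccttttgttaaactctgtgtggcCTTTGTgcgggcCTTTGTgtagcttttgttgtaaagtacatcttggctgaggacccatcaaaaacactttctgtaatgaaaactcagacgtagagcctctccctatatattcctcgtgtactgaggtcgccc
The Mobp window holds 6 matches and the Olig2 window 1, and no binding was measured. Mobp does not stand for the other members in this. Of the 22 members with a window, 11 had a SOX core match. The windows of Cldn11, Mal, Pllp and Ugt8a, whose groups also overlapped, held none.

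Of the other transcription factors, Nkx6-2 and Myrf had higher values in lithium in all 4 pairs of equal number. Nkx6-2, a homeobox factor of oligodendrocyte maturation, measured 222, 234, 264 and 190 in control and 355, 274, 314 and 226 in lithium samples, with a log2 difference of 0.35 (interval -0.04 to 0.74, adjusted p = 0.333). Myrf, the membrane-anchored regulator of myelin genes, measured 344, 333, 435 and 502 in control and 422, 395, 537 and 632 in lithium samples, with a difference of 0.29 (interval -0.18 to 0.77). In both groups the Myrf values were higher on arrays 3 and 4 than on arrays 1 and 2. Sox10, which acts throughout the lineage, measured 547, 564, 729 and 749 in control and 637, 600, 786 and 703 in lithium samples and showed the same order of the arrays (log2 difference 0.08, adjusted p = 0.835). Olig1, the close relative of Olig2, averaged 245 ± 30.1 in control and 264 ± 53.9 in lithium, with log2 differences of 0.41 within arrays 1 and 2 and -0.22 within arrays 3 and 4.

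The promoter table held 29 windows for 22 of the 32 members. The SOX core letters occurred in 13 of these windows (44.8%) and in 25.2% of all 32851 windows of the same length. The letters CTGGNAC of the Myrf motif occurred in 31.0% of member windows and 16.1% of all, and the E-box in 27.6% and 14.4%, each searched on both strands. Gjb1, Klk6, Mag and Tspan2 have several windows, of which a pair of Mag windows overlap. These shares say nothing of the response to lithium.

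The secreted proteins and proteases Apod, Adamts4 and Klk6 had log2 differences between 0.05 and 0.11, with a median of 0.05 that came to -0.025 without lithium 1. Apod, an apolipoprotein of the lipocalin family, measured 1850, 1712, 1761 and 1856 in control and 2184, 1687, 1889 and 1719 in lithium samples (difference 0.05, adjusted p = 0.841). Adamts4, a protease of the extracellular matrix, measured 1242, 1291, 1150 and 1170 in control and 1556, 1385, 1193 and 1147 in lithium samples (difference 0.11, adjusted p = 0.671). Klk6, a serine protease of oligodendrocytes, averaged 1734 ± 79.0 in control and 1806 ± 307 in lithium (adjusted p = 0.910). Lithium 1 was the highest of the 8 arrays for all 3 genes.

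The last role joined receptors, signalling and cytoplasmic proteins, with 6 members and a median of 0.03, or -0.046 without lithium 1. Pex5l, a protein related to a peroxisomal import receptor that binds pacemaker channels, measured 460, 441, 337 and 374 in control and 678, 623, 525 and 516 in lithium samples. All 4 lithium samples were above all controls, and the difference was nearly the same within arrays 1 and 2 (0.53) and within arrays 3 and 4 (0.55). The means of 403 ± 57.8 and 585 ± 78.6 gave a log2 difference of 0.54 (SE 0.14, interval 0.21 to 0.87), or 1.45-fold, with an adjusted p of 0.103. It passed the threshold with a term for arrays 1 and 2 against 3 and 4 (adjusted p = 0.0114) and with its probe sets averaged (adjusted p = 0.0397). Pex5l was called in 3 of the 18 alternatives, with an adjusted p of up to 0.232. All 4 probe sets of Pex5l had a higher mean in lithium, by 0.52 to 0.67 on the log2 scale.

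Ppp1r14a, an inhibitor of myosin phosphatase that smooth muscle also makes, measured 418, 451, 517 and 488 in control and 270, 214, 454 and 365 in lithium samples. Lithium 3 reached into the control range, while lithium 1, 2 and 4 were below all controls. The means were 469 ± 43.5 and 326 ± 106, with a log2 difference of -0.58 (interval -1.13 to -0.02, adjusted p = 0.262 and unadjusted p = 0.0437). The difference was -0.85 within arrays 1 and 2 and -0.30 within arrays 3 and 4. Markers of pericytes and smooth muscle had a median of -0.75 over 10 genes, 9 of them with a lower mean in lithium and 0 called by limma (3 at an unadjusted p under 0.05). Their summed signals were 972 to 1752 in control and 1025 to 2081 in lithium samples. Most of each sum was Tagln, the marker with a higher mean in lithium (992 ± 231 in control and 1210 ± 442 in lithium). The sums therefore do not describe the other markers. Acta2, smooth muscle actin, was 76.9 ± 51.5 in control and 36.2 ± 9.91 in lithium. The part of such cells in the Ppp1r14a values was not tested.

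The remaining members of this role differed little on the probe sets read for them. Cryab, a small heat shock protein that astrocytes also make, was nearly constant in control at 1785, 1777, 1775 and 1767 and spread in lithium to 2240, 1943, 1619 and 1881 (log2 difference 0.10, adjusted p = 0.668). Sirt2, a deacetylase of the myelin sheath, measured 669, 659, 665 and 757 in control and 896, 654, 805 and 763 in lithium samples (difference 0.17, adjusted p = 0.472). The receptor Gpr37 and the stress-responsive protein Ndrg1 differed by -0.15 and -0.04, with adjusted p of 0.847 and 0.917.

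The lithium samples varied more than the controls. The median SD of the members' log2 signals was 0.11 in control and 0.25 in lithium (0.20 without lithium 1), and 27 of 32 members had the larger SD in lithium. In all genes at the level of 200 this was so for 75.6%, with median SDs of 0.14 and 0.22. On lithium 1 the median deviation of the members from their control mean was 0.31 on the log2 scale, and 24 of 32 members lay above that mean. It was -0.02, 0.01 and -0.01 on lithium 2, 3 and 4, and the controls lay between -0.04 and 0.01. Lithium 1 held the highest of the 8 values for 17 members, and lithium 2 the lowest for 13. Over all genes the median deviation on lithium 1 was -0.06.

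**Figure D3:**
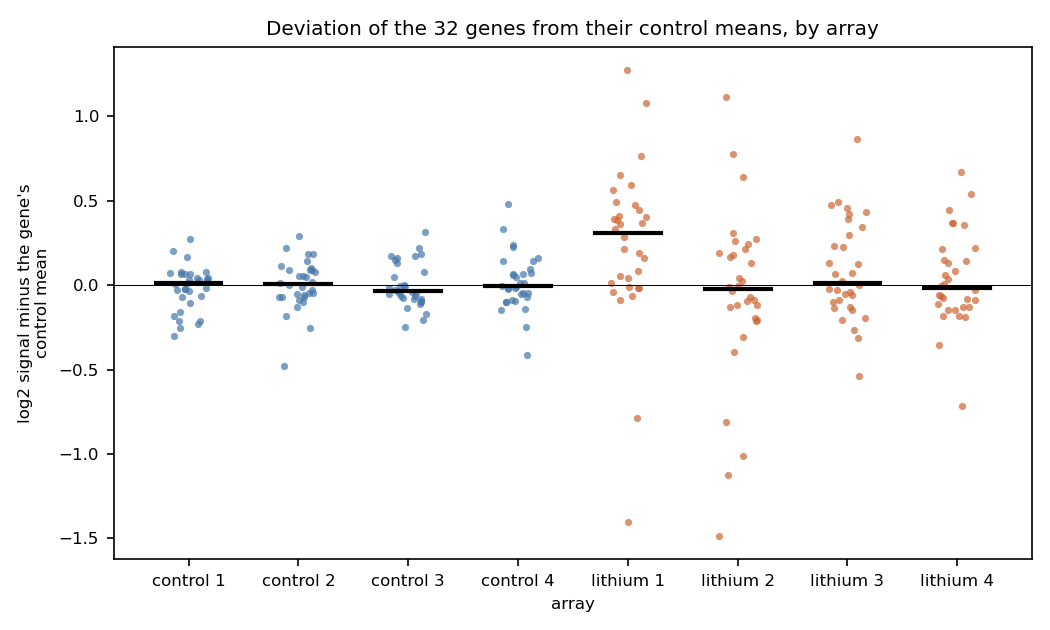
Deviation of each member from its control mean on the log2 scale on each of the 8 arrays, with a bar at the median of the 32 members. The median is 0.31 on lithium 1 and between -0.04 and 0.01 on the other arrays.

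The height of lithium 1 went with brightness. For the 13 members with a mean of at least 1000 in both groups, it was the highest array for 10, a share of 76.9%, and it was so for 71.7% of the 506 genes of that brightness and for 29.5% of all genes at the level of 200. The differences of these 13 members lay between -0.10 and 0.18, with a median of 0.08, where the 506 genes had a median of 0.05. For 11 of the 13 the interval lay within 0.5 of 0. The other 19 members held the whole range from -0.80 to 0.86.

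Probe sets of a gene did not always move together. Of all 45037 probe sets tested, 1050 were called. The 32 members had 71 probe sets, of which 69 lay above the poly-A background on all 8 arrays and 1 was called. This was the second probe set of Bcas1, with signals of 63.8, 58.7, 50.3 and 38.4 in control and 32.02, 24.0, 24.5 and 26.8 in lithium samples. It was lower in lithium without overlap of the groups (log2 difference -0.96, adjusted p = 0.0482), against 0.16 for the probe set read for Bcas1. A further probe set of Bcas1 differed by -0.71 (adjusted p = 0.149). The second probe set of Apod also differed from the first, at -0.93 (adjusted p = 0.224). The second probe set of Opalin differed by more than the first in the same direction, with signals of 5.78, 13.6, 12.5 and 14.9 in control and 17.99, 21.6, 36.0 and 47.2 in lithium samples. These groups did not overlap, and the log2 difference was 1.38 (unadjusted p = 0.0138, adjusted p = 0.148). With both probe sets averaged, Opalin came to 0.82 (adjusted p = 0.0746) in place of 0.27. That average gave equal weight to the second probe set, which was dim. Its signal on control 1 lay barely above the poly-A background of that array, 5.64. All 5 probe sets of Ndrg1 had a lower mean in lithium, with log2 differences from -0.66 to -0.04, the last of which came to 0.051 after median centring.

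Beside the myelin genes stood a list of other genes of mature oligodendrocytes, 30 of 31 measured, with the same median of 0.10 and 0 called by limma (3 at an unadjusted p under 0.05). Its median was 0.10 within arrays 1 and 2 and also within arrays 3 and 4. Of 15 genes of the precursor cell 13 were measured. Their median was -0.56 over all arrays, -0.77 for the arrays numbered 1 and 2 and -0.50 for those numbered 3 and 4, and 10 genes had a lower mean in lithium. None was called, 6 of the 13 had an unadjusted p under 0.05, and the groups did not overlap for 7. The shares over all genes were 22.0% at an unadjusted p under 0.05 and 15.1% without overlap. Pdgfra, the growth factor receptor that defines these cells and that fibroblasts also carry, measured 493, 425, 599 and 592 in control and 101, 114, 312 and 307 in lithium samples. All lithium values lay below all controls, and the difference was -1.52 (adjusted p = 0.124). Cspg4, the NG2 proteoglycan of the same cells and of pericytes, averaged 64.9 ± 15.2 in control and 69.2 ± 13.8 in lithium. Committed and newly formed oligodendrocyte genes had a median of -0.32 over 8 genes, 0 called and 2 at an unadjusted p under 0.05, and regulators of differentiation had -0.06 over 11, likewise with 0 and 2. Whether these lists differ from the myelin genes was not tested.

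**Figure D4:**
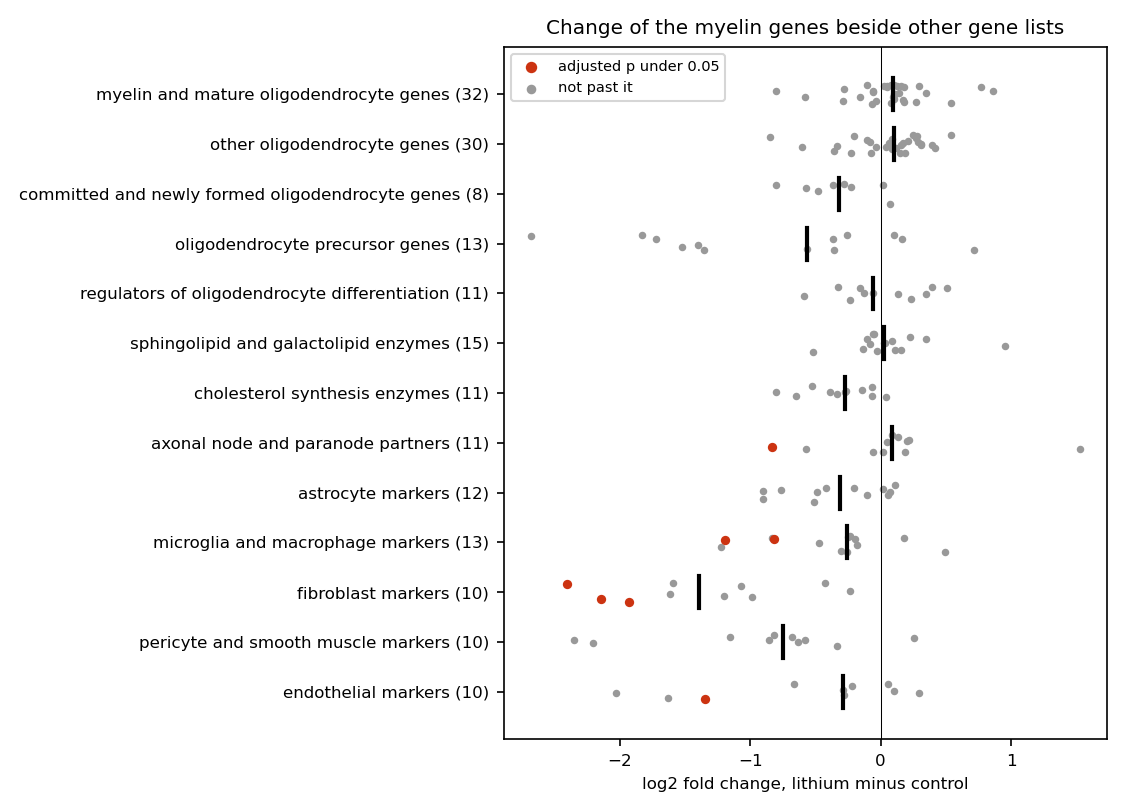
Log2 difference (lithium minus control) of each measured gene of the myelin list and of other gene lists, with a bar at each list's median and the number of genes in brackets. Red points passed an adjusted p of 0.05 (limma), and none of them is a gene of the oligodendrocyte lists.

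Markers of other cells in the nerve differed as follows, where 2.05% of all genes were called lower. The 10 fibroblast markers had a median of -1.40, and 3 were called lower, Col3a1, Pdgfrb and Lum. Col3a1, a fibrillar collagen, averaged 1067 ± 234 in control and 215 ± 95.8 in lithium (log2 difference -2.41, adjusted p = 0.0321). Their summed signals were 3663 to 6104 in control and 1347 to 2919 in lithium samples. The microglia and macrophage markers had a median of -0.26 over 13 genes, 11 with a lower and 2 with a higher mean in lithium. Trem2 and Tyrobp, a receptor and its adaptor, were called lower (log2 differences -1.19 and -0.82). Aif1 had a higher mean in lithium (log2 difference 0.18) and was not called. The 12 astrocyte markers had a median of -0.31 with 0 called and 2 at an unadjusted p under 0.05, and Gfap, the astrocyte filament protein, was 1593 ± 97.1 and 1487 ± 170. The endothelial list had a median of -0.29 over 10 genes, 7 with a lower and 3 with a higher mean in lithium. In it 1 gene was called lower, the receptor Kdr, which was dim at 16.1 ± 4.53 in control and 6.20 ± 0.744 in lithium. Pecam1, with a higher mean in lithium, was also dim, at 12.5 ± 1.90 and 13.7 ± 4.04. What share of each array's RNA these cells made up was not measured, and its part in the values of the myelin genes was not tested.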

How the data were processed

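The authors obtained RNA from 8 samples, hybridised it to 1-colour Affymetrix Mouse Genome arrays and processed the scans with GeneChip Operating Software and Agilent GeneSpring GX 12. The deposited values are MAS5 intensities on a linear scale, 1 per probe set and array. Of 45101 probe sets, 64 Affymetrix controls were left out, and of the 45037 tested 34945 carried 1 gene symbol, 932 several and 9160 none, by the platform annotation. Entrez identifiers of 34741 were found in RefSeq, and 0 symbols changed.

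Intensities were floored at 1 (14.5% of values) and taken to log2. The lithium and control arrays were compared in limma 3.58.1 (lmFit and eBayes, R 4.3.3) with no blocking factor, and the Benjamini-Hochberg adjustment ran over the 45037 probe sets. A gene was called at an adjusted p under 0.05. Group means and SDs refer to the linear scale, whereas differences were taken between mean log2 values. Signals of different probe sets were not set against each other as levels, and the summed signal of a list served to compare arrays. The fit was tested on simulated data. The members, the other lists and the tests were chosen with earlier results of these data known. Full statistics were planned for called members and, in each role, for the member with the lowest adjusted p and the one with the brightest probe set. The values given for the other members, and Cspg4, Cntnap2 and Lum, were added after their values were seen. Arrays of both groups are numbered 1 to 4, and neither labels nor paper say what a number shares. Deviations of same-numbered arrays correlated in all 4 pairs (0.130 to 0.197, limit 0.1), so the numbers were taken as pairs, from the data alone. Correlations between arrays 1 and 2, or 3 and 4, of opposite groups were also positive (0.0706 to 0.131), so this check does not separate numbered pairs from these blocks of arrays. The fit was repeated with median centring, quantile normalization, a level of 200, 16 added before log2, all probe sets of a gene averaged, _x_at and _s_at probe sets dropped, a trended and robust variance, array weights, a replicate block, a covariate that parts arrays 1 and 2 from arrays 3 and 4, and each array left out. The number of arrays limits the precision. Plots were made in Python 3.11.15 (matplotlib 3.10.9).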

Additional observations from a re-analysis of the deposited data

Results flagged for a closer look

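In 64 groups of 4 samples tested for a value far from the other 3, 3 stood apart, where chance gives about 1 in 20 groups. The lithium 2 sample was the lowest of its group for Pllp, with a gap to the next sample of 0.890 of the group's range. The control 2 sample was the highest of its group for Cntn2, with a gap of 0.859 of the range. The control 4 sample was the highest of its group for Sirt2, with a gap of 0.884 of the range.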

How the results depend on the processing

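No member was called lower under any alternative, and none was called in either direction when any single array was left out. Called higher were 3 members (Aspa, Olig2 and Pex5l) with only probe sets at a level of 200 tested, 2 (Aspa and Pex5l) with all probe sets of a gene averaged, 2 (Olig2 and Pex5l) with a term for arrays 1 and 2 against 3 and 4, 1 (Aspa) with log2 of the value plus 16 and 1 (Aspa) with a trended and robust variance. Aspa and Olig2 reached the level of 200 in lithium alone. With the replicate block 0 were called, as without it (7 at an unadjusted p under 0.05), and the adjusted p of Aspa, Olig2 and Pex5l was 0.132, 0.0872 and 0.0647. Over all alternatives these ranged from 0.0154 to 0.154, from 0.0185 to 0.219 and from 0.0114 to 0.232. Small differences changed sign. With quantile normalization Mbp was at -0.031, Mog at -0.011, Apod at -0.0093 and Klk6 at -0.021. Median centring brought the median of all genes to 0.08, and Ermn was then at 0.027, Ugt8a at 0.020, Cldn11 at 0.025 and Ndrg1 at 0.051. Array weights gave Mbp -0.028 and Olig1 -0.033, and the mean of probe sets gave Bcas1 -0.50 and Apod -0.44. Leaving out 1 array gave from -0.036 to 0.17 for Mbp, -0.010 to 0.11 for Mog, -0.0073 to 0.25 for Mobp, -0.14 to 0.051 for Ermn, -0.0059 to 0.23 for Olig1, -0.025 to 0.10 for Apod, -0.063 to 0.10 for Klk6, -0.39 to 0.032 for Gpr37 and -0.12 to 0.017 for Ndrg1. None of these members was called in any of these settings, and the cause was not tested.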
